A study of Mus musculus with 4 samples.

Results

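The genes described here are 9 factors that write, maintain or remove DNA methylation, or that silence transposons through it, in the mouse testis: *Dnmt1*, *Uhrf1*, *Dnmt3a*, *Dnmt3b*, *Dnmt3l*, *Tet1*, *Tet2*, *Tet3* and *Morc1*. They were chosen by name from the deposited table of 55820 loci, of which 55536 are annotated genes. All 9 passed the filter on low counts, which kept 20561 loci. The table covers RNA sequencing of whole testes from C57BL/6J male mice at postnatal day 10 (P10), with 2 libraries from control mice and 2 from Mps1sKO mice. In Mps1sKO mice, a *Stra8*-Cre transgene, which is active in germ cells from early spermatogonia to preleptotene spermatocytes, deletes the floxed *Mps1* gene (symbol *Ttk*). The alleles of the control mice beyond the word control, and the number of mice behind each library, are not given in the sources used here, so p-values measure only the spread between these libraries. The totals ranged from 23311689 to 28607746 counts, and 3 counts correspond to 0.105 to 0.129 CPM, the counts scaled to the library totals.

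DNA methylation in mammals sits mainly on the cytosine of CpG dinucleotides. DNMT3A and DNMT3B set new marks, and DNMT3L, which has no catalytic activity of its own, stimulates them. After replication, UHRF1 recognises the hemimethylated DNA and brings in DNMT1, which copies the mark to the new strand. The TET enzymes oxidise 5-methylcytosine and so start its removal, and MORC1 is a germ cell ATPase needed for silencing of transposons in the male germ line. Male germ cells acquire most of their methylation as prospermatogonia before birth, when DNMT3L is at its peak, so the P10 testis with its spermatogonia, early spermatocytes and many Sertoli cells lies after that wave.

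The deleted gene was lower in both libraries labelled Mps1sKO. *Ttk* had 750 and 940 counts in control testes and 302 and 326 in Mps1sKO testes, a level 41.7% of control (log2 fold change −1.26, standard error (SE) 0.129, adjusted p = 0.0461 over all tested loci in the quasi-likelihood fit of edgeR). The direction held in all alternatives. With DESeq2 the adjusted p was 9.6e-09. In edgeR it was 1.1e-14 with no filter on low counts and 0.0387 with library size only. It was 0.0504 with the size factors of DESeq2 in edgeR, 0.0573 with at least 10 counts in every library and 0.224 with a replicate block. Whole testis RNA includes that of cells without the Cre. Defining germ cell genes such as *Ddx4* and *Dazl* and Sertoli genes such as *Clu* and *Aard* were abundant in every library, whereas the Sertoli gene *Rhox5*, named after its values were seen, had 1, 0, 0 and 0 counts.

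Several of these genes start at more than 1 site, and the counts are per gene, so they do not separate the starts. The windows below, from RefSeq on GRCm38.p6, run from 250 bases before to 50 after a start, and capitals mark CpG, the substrate of the enzymes. Windows of the most abundant pair and of the least abundant member are shown, because starts of 1 gene can differ widely in how much of this substrate surrounds them. The distal start of *Dnmt1* (chr9:20959839-20960138, minus strand) held 2 CpG, and its proximal start (chr9:20952574-20952873, minus strand) held 33. The window of *Uhrf1* at chr17:56304063-56304362 (plus strand) also held 33, and that of *Dnmt3l* at chr10:78042037-78042336 (plus strand) held 6. The other window of *Dnmt1* and the other of *Uhrf1*, whose letters are not printed, held 12 each.
*Dnmt1* distal: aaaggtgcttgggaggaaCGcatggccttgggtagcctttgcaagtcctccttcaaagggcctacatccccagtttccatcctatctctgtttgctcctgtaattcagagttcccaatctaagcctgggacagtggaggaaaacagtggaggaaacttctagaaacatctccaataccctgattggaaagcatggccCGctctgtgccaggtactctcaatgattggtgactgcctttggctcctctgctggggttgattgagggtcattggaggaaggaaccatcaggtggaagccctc
*Dnmt1* proximal: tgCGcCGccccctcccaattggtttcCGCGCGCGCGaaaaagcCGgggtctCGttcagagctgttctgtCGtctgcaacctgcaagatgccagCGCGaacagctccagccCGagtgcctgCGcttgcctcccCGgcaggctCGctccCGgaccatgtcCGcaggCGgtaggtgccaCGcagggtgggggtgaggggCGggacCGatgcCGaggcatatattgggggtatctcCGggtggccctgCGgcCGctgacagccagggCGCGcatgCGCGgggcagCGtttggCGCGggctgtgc
*Uhrf1*: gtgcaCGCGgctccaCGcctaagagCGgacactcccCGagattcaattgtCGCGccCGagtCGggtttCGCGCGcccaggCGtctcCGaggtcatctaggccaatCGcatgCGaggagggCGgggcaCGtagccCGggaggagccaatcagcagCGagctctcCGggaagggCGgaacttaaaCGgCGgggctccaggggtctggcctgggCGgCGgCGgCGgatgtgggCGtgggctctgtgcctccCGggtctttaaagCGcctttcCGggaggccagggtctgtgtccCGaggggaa
*Dnmt3l*: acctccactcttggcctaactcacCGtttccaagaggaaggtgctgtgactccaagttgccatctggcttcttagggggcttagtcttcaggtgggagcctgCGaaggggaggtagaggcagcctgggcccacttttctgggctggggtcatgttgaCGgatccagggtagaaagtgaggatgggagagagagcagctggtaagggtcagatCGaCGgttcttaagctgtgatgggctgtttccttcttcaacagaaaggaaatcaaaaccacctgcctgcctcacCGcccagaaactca

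RefSeq windows were found for 8 of the 9 members, all but *Morc1*. Over 32851 windows of all genes the median was 7 CpG and the 90th percentile was 31. The 3 windows of *Dnmt3l* held 6, 4 and 3 CpG. Those of the other members reached their highest values with 57 in *Tet2* and 47 and 46 in the first pair of *Dnmt3a* windows, while *Dnmt3b* held 30, *Tet3* 22 and *Tet1* 17. The motif TTCCCGC, which E2F factors of the cell cycle can bind, was searched on both strands. It occurred once, in the upstream *Uhrf1* window at chr17:56303087-56303386, and 4.6% of all windows hold it. CCAAT on either strand occurred in the distal and the proximal *Dnmt1* windows, in both *Uhrf1* windows and in that of *Tet3*, and 37.4% of all windows hold it. These matches describe the letters of the windows and not binding.

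Levels of different genes were compared per length, as the FPKM of the table. *Dnmt1* had the highest mean over the 4 libraries, 27.6 FPKM, with a range of 24.7 to 29.3. *Uhrf1* followed at 25.7 FPKM, from 22.4 to 28.2, so the ranges of these partners in maintenance overlapped. *Tet3* (13.9 FPKM, from 13.1 to 14.6), *Dnmt3a* (13.9, from 12.7 to 15.1) and *Dnmt3b* (13.7, from 11.8 to 14.7) could not be ordered, since their ranges overlapped too. *Morc1* was next at 5.39 FPKM, from 4.06 to 6.03, and lay above *Tet2* at 3.14 FPKM, from 3.01 to 3.40. *Tet1* had 1.65 FPKM, from 1.51 to 1.80, and *Dnmt3l* was lowest at 0.691, from 0.449 to 0.945. *Dnmt1* lay above 94.3% of the 34990 annotated genes with any count, and *Dnmt3l* above 52.5%.

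The length behind FPKM matters for this order. The table divides by the summed length of all exons of a gene, which was 16642 bases for *Dnmt3a* and 6479 for *Morc1*, whereas their longest coding transcripts in GENCODE M21 have 9685 and 3045 bases. *Morc1* had the largest ratio between both lengths, 2.13, and *Tet1* the smallest, 1.08. Per longest coding transcript, a measure chosen after the data were seen, *Dnmt3a* reached 23.8 FPKM, from 21.9 to 25.9, *Tet3* 21.3, from 20.1 to 22.3, and *Dnmt3b* 16.1, from 13.9 to 17.3. *Dnmt3b* then lay below *Dnmt3a* and *Tet3* in ranges that did not overlap. *Morc1* reached 11.5 FPKM in this measure and kept its place.

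**Figure D1:**
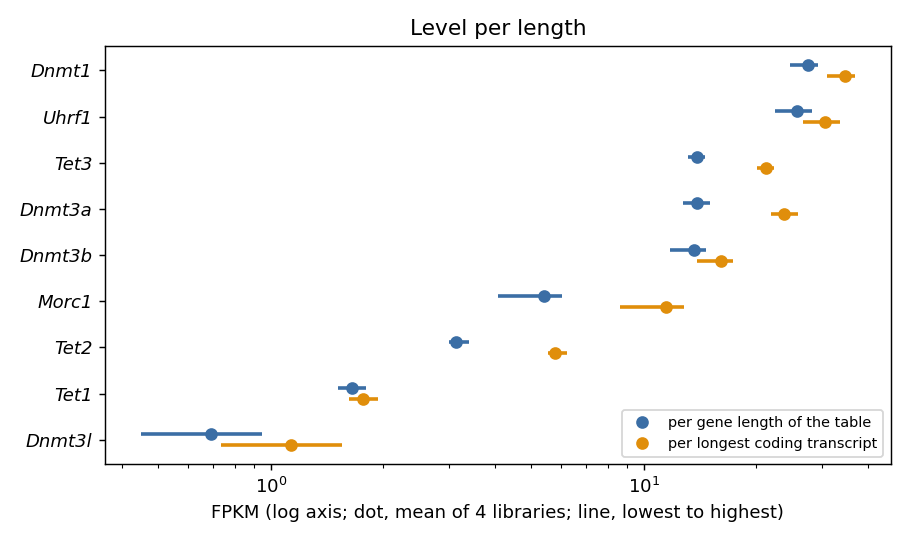
FPKM of the 9 genes on a log axis, with dots at the mean of the 4 libraries and lines from the lowest to the highest library. Blue uses the gene length of the table and orange the longest coding transcript; *Dnmt1* and *Uhrf1* are highest and *Dnmt3l* lowest with either length, while *Dnmt3b* lies clear of *Dnmt3a* and *Tet3* with the second only.

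Between genotypes, none of the 9 genes passed the test. With p adjusted over all tested loci by the Benjamini-Hochberg method, 0 of 9 had an adjusted p below 0.05, and the smallest was 0.527, for *Uhrf1*. Over all tested loci 0.0292% passed, all of them lower in Mps1sKO testes. At an unadjusted p below 0.05 there was 1 of 9, *Uhrf1*, beside 9.3% of all loci. DESeq2 gave 0 of 9 at an adjusted p below 0.05. It also gave 0 of 9 at an unadjusted one, beside 3.2% of the 35262 loci in that fit. Both Mps1sKO libraries lay below both control libraries for *Dnmt1*, *Uhrf1* and *Morc1* and above them for *Tet1* and *Tet2*, so 5 of 9 did not overlap, and 41.4% of all tested loci did not either, 21.1% lower and 20.3% higher. Both a 1.5-fold difference and an unadjusted p under 0.01 were met by 0 of 9 and by 0.827% of all loci, 0.681% lower and 0.146% higher. The median log2 fold change of the 9 was −0.13, with 5 lower and 4 higher, and that of all tested loci was 0.00027. Mps1sKO replicate 2 carried much of the spread: without it the median was −0.041 and 0 of 9 had an unadjusted p below 0.05, beside 9.36% of all loci in that fit. Without Mps1sKO replicate 1 the median was −0.25 and 5 of 9 did, beside 12.8% of all loci.

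**Figure D2:**
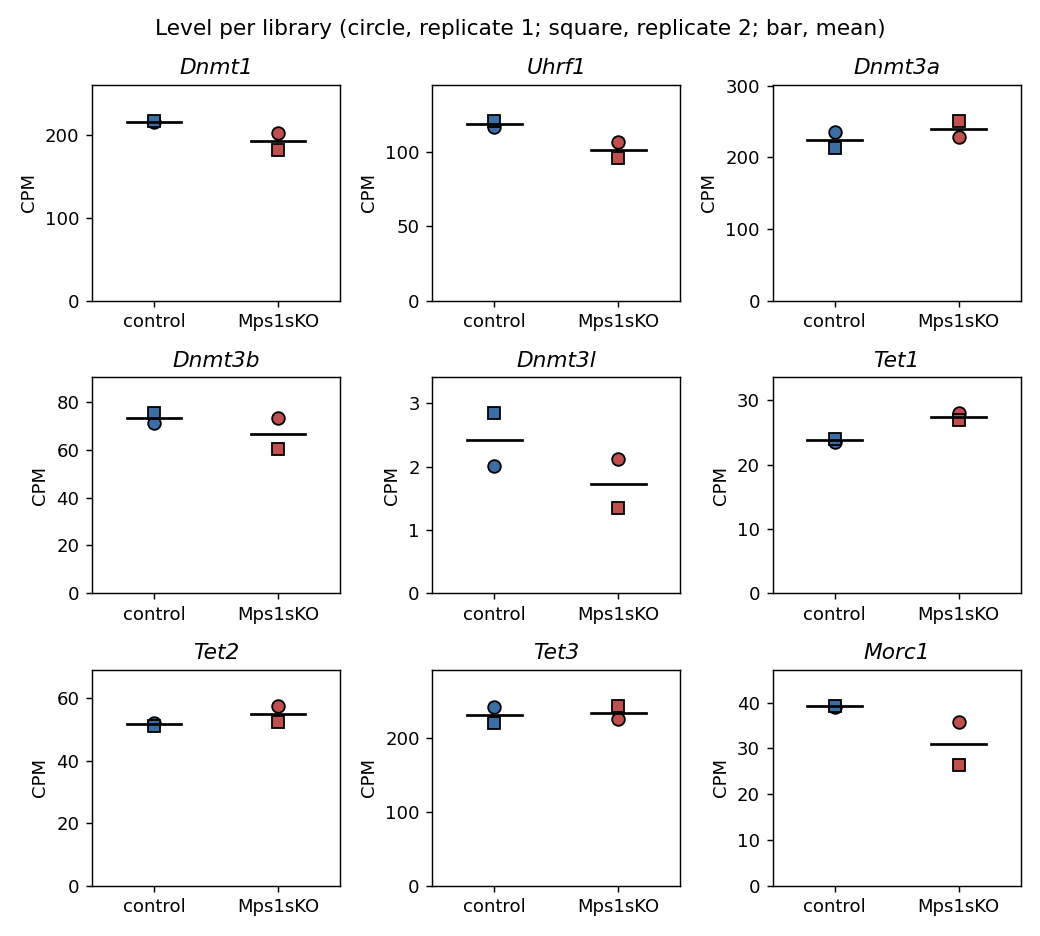
CPM of each gene in each library, on axes that start at 0, with blue for control, red for Mps1sKO, circles for replicate 1, squares for replicate 2 and bars at the group means. The *Dnmt1*, *Uhrf1* and *Morc1* values of Mps1sKO lie below both control values and those of *Tet1* above them, while the groups of *Dnmt3a*, *Dnmt3b*, *Dnmt3l* and *Tet3* overlap.

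The maintenance factors had the same order of libraries. *Dnmt1* (ENSMUSG00000004099), on chromosome 9 from 20907209 to 20959888 on GRCm38, had 216 and 217 CPM in control libraries and 203 and 182 in Mps1sKO libraries. The control libraries were nearly equal, and both Mps1sKO libraries were lower, the second most. The log2 fold change was −0.17 (SE 0.0919, edgeR adjusted p = 0.602), with a 95% interval from 76.7% to 103% of control. Without Mps1sKO replicate 2 it was −0.093. *Uhrf1* (ENSMUSG00000001228), on chromosome 17 from 56303321 to 56323486, had 117 and 121 CPM in control and 107 and 95.8 in Mps1sKO libraries, and again both Mps1sKO values were below both control values. Its log2 fold change was −0.23 (SE 0.0938, unadjusted p = 0.0403, edgeR adjusted p = 0.527), with a 95% interval from 73.2% to 99.1% of control, and it was lower in 2 of 2 Mps1sKO libraries. Over all alternatives its unadjusted p ranged from 0.0043 to 0.192 and its adjusted p did not fall below 0.0845. The ratio of *Dnmt1* to *Uhrf1* within a library stayed close to 1 on the FPKM scale, at 1.07 and 1.04 in control and 1.10 and 1.10 in Mps1sKO libraries. Of the 100-base windows of the longest *Uhrf1* transcript, 7.05% also occur in the transcript of the pseudogene *Gm5648*, so a small part of its reads may have been divided or dropped in counting.

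The de novo enzymes did not share a direction. *Dnmt3a* (ENSMUSG00000020661), on chromosome 12 from 3806007 to 3914443, had 235 and 213 CPM in control and 228 and 251 in Mps1sKO libraries, so the groups overlapped. Its log2 fold change was 0.096 (SE 0.0971, edgeR adjusted p = 0.781), and the 95% interval ran from 91.4% to 125% of control. It was between 0.025 and 0.17 with a library left out, lowest without control replicate 2. *Dnmt3b* (ENSMUSG00000027478), on chromosome 2 from 153649450 to 153687730, had 71.4 and 75.4 CPM in control and 73.5 and 60.3 in Mps1sKO libraries. Only the second Mps1sKO library was below the controls, and the log2 fold change of −0.13 (edgeR adjusted p = 0.736) was 0.0030 without Mps1sKO replicate 2 and −0.28 without Mps1sKO replicate 1. Per FPKM, *Dnmt3b* made up 49.7% and 53.5% of the sum of both catalytic enzymes in control and 51.2% and 43.9% in Mps1sKO libraries.

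*Dnmt3l* (ENSMUSG00000000730), on chromosome 10 from 78041947 to 78063622, was rare, with 54 and 82 counts in control and 49 and 36 in Mps1sKO libraries. The exact 95% Poisson interval of the highest count ran from 65.2 to 102 and that of the lowest from 25.2 to 49.8, which cover counting error only. In CPM the values were 2.01 and 2.84 in control and 2.11 and 1.34 in Mps1sKO libraries, and the first libraries of both groups overlapped. The log2 fold change of −0.50 had an SE of 0.305 (edgeR adjusted p = 0.628), and the 95% interval, from 43.2% to 116% of control, was the widest of the 9. With 1 library left out in turn, the value ran from −0.85 without Mps1sKO replicate 1 and −0.73 without control replicate 1 to −0.20 without Mps1sKO replicate 2. *Dnmt3c*, the rodent copy of *Dnmt3b* that methylates young transposons in male germ cells, lies next to *Dnmt3b* and had 11.3 and 11.8 CPM in control and 13.5 and 12.4 in Mps1sKO libraries (log2 fold change 0.16, edgeR adjusted p = 0.713). *Dnmt3b* and *Dnmt3c* have 241 of their 100-base windows in common, which are 5.71% of those of *Dnmt3b* and 11.3% of those of *Dnmt3c*, so the assignment of part of their reads is uncertain. The family member *Trdmt1*, which methylates transfer RNA, had log2 fold change −0.0012 (edgeR adjusted p = 0.999), and *Uhrf2*, the paralog of *Uhrf1*, had −0.036 (edgeR adjusted p = 0.927).

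All 3 TET genes had a log2 fold change above 0, and none passed the test. *Tet1* (ENSMUSG00000047146), on chromosome 10 from 62804570 to 62908996, had 23.5 and 24.0 CPM in control and 28.0 and 26.9 in Mps1sKO libraries. Both Mps1sKO values lay above both control values, with a log2 fold change of 0.21 (SE 0.104, unadjusted p = 0.0828, edgeR adjusted p = 0.583) and a 95% interval from 97.6% to 137% of control. Its direction held with each library left out in turn, between 0.18 and 0.24. *Tet2* (ENSMUSG00000040943), on chromosome 3 from 133463679 to 133545139, had 52.2 and 51.0 CPM in control and 57.6 and 52.5 in Mps1sKO libraries. The lower Mps1sKO library exceeded the higher control library by less than the spread within either genotype, and the log2 fold change was 0.093 (edgeR adjusted p = 0.784), between 0.026 and 0.16 with a library left out. *Tet3* (ENSMUSG00000034832), on chromosome 6 from 83362373 to 83459084, had 243 and 221 CPM in control and 225 and 243 in Mps1sKO libraries. These groups covered the same range, and the log2 fold change of 0.016 (edgeR adjusted p = 0.976) had a 95% interval from 86.9% to 118% of control and was −0.0048 when libraries were scaled by their size only. *Tet3* made up 75.9% and 74.3% of the summed TET FPKM in control and 72.1% and 75.0% in Mps1sKO libraries, and the share of *Tet1* was between 7.95% and 9.67%.

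*Morc1* (ENSMUSG00000022652), on chromosome 16 from 48431237 to 48630900, had 39.1 and 39.3 CPM in control libraries and 35.8 and 26.3 in Mps1sKO libraries. The control libraries were within 1% of each other, while the Mps1sKO libraries differed from each other more than the first of them differed from control. The log2 fold change was −0.34 (SE 0.147, unadjusted p = 0.0521, edgeR adjusted p = 0.541), with a 95% interval from 62.4% to 100.3% of control. It was −0.13 without Mps1sKO replicate 2 and −0.57 without Mps1sKO replicate 1. The related genes *Morc2a*, *Morc3* and *Morc4* had log2 fold changes of −0.019, −0.11 and −0.34 with adjusted p-values of 0.968, 0.792 and 0.586 from edgeR. *Morc2b*, a germ cell relative, had 3, 2, 2 and 5 counts and was left out by the filter.

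**Figure D3:**
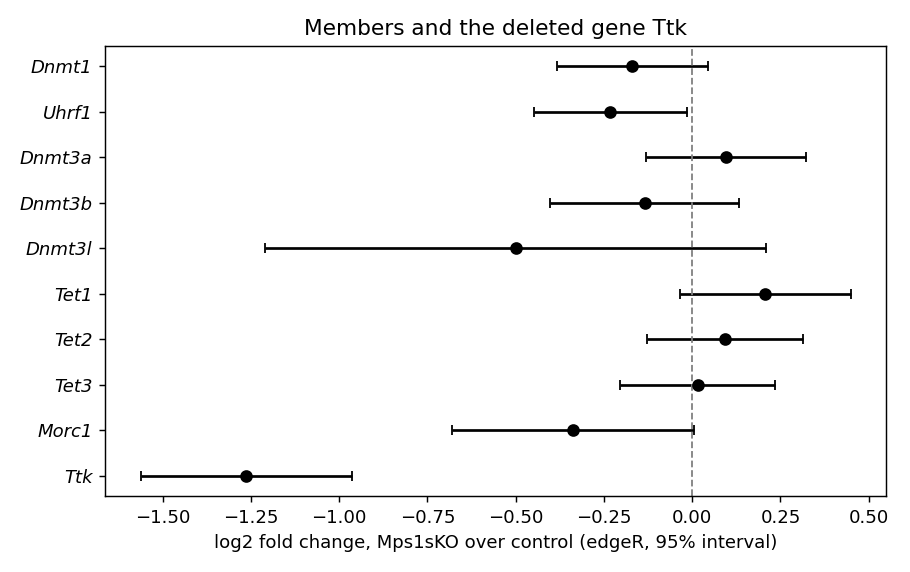
Log2 fold change of Mps1sKO over control with its 95% interval from edgeR, for the 9 genes and for *Ttk*. The intervals of all but *Uhrf1* and *Ttk* include 0, and that of *Dnmt3l* is the widest.

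A whole testis mixes cell types, and fewer cells of a type and less RNA per cell cannot be told apart in these data. The list of 10 germ cell genes had a median log2 fold change of −0.44, and its summed level was 1174 and 1408 CPM in control and 1065 and 840 in Mps1sKO libraries. All 10 of its genes lay lower in both Mps1sKO libraries, beside 21.1% of all tested loci, and 0 passed an adjusted p of 0.05, with 7 at an unadjusted p below 0.05. Mps1sKO replicate 2 was thus lowest in this sum, as it was for *Dnmt1*, *Uhrf1*, *Dnmt3b*, *Dnmt3l* and *Morc1*. The 13 tested Sertoli genes had a median of 0.26, with sums of 7025 and 7139 CPM in control and 8759 and 8440 in Mps1sKO libraries. Of these sums *Clu* alone made up 2900 and 3586 CPM in control and 4399 and 3319 in Mps1sKO libraries, which overlapped. In this list 12 genes had a log2 fold change above 0 and 1 below. Only 5 lay higher in both Mps1sKO libraries, beside 20.3% of all tested loci. With edgeR 4 had an unadjusted p below 0.05 and 0 passed an adjusted p of 0.05. The part of these shifts in the values of the 9 genes was not tested.

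Counts were also divided by the summed germ cell list of the same library, which removes the scaling between libraries. Relative to this sum, 7 of the 9 genes lay higher in both Mps1sKO libraries and *Morc1* and *Dnmt3l* overlapped, beside 62.5% of all tested loci that lay higher and 1.94% that lay lower. The median difference over all tested loci was 0.44 on the log2 scale. *Tet1* differed by 0.65, *Dnmt3a* by 0.54, *Tet2* by 0.54 and *Tet3* by 0.46, while *Dnmt3b* differed by 0.30, *Dnmt1* by 0.27 and *Uhrf1* by 0.21. Relative to the undifferentiated spermatogonia list, 4 of 9 lay higher, *Dnmt3a*, *Tet1*, *Tet2* and *Tet3*, beside 43.3% of all loci, and the values of *Dnmt1* and *Dnmt3b* were 0.012 and 0.043. *Morc1* had 0.0333 and 0.0279 counts per germ cell list count in control and 0.0336 and 0.0314 in Mps1sKO libraries, so these ratios covered the same range, with a difference of 0.091. *Dnmt3l* differed by −0.059. For *Ttk* the difference was −0.81. With 2 libraries in each group, exact permutation (two-sided) has a floor at p = 0.333, so no ratio could pass 0.05. The lowest value after adjustment over 13 ratios (these 9 and 4 between members) was 0.481.

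**Figure D4:**
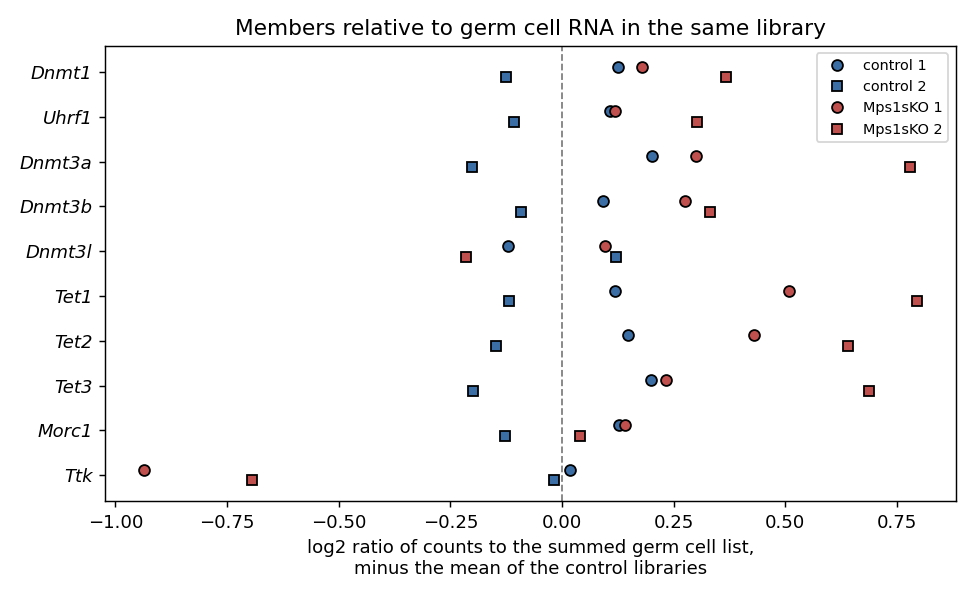
Log2 ratio of each gene's counts to the summed germ cell list of the same library, less the mean of the control libraries, with blue for control, red for Mps1sKO, circles for replicate 1 and squares for replicate 2. *Morc1* and *Dnmt3l* overlap between genotypes, the other 7 genes lie to the right in Mps1sKO and *Ttk* lies to the left.

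Other genes around DNA methylation were taken from 9 lists with 80 genes, of which 79 were tested. None passed an adjusted p of 0.05 with edgeR, and 23 lower and 1 higher gene had an unadjusted p below 0.05, beside 5.37% and 3.92% of all loci. The partners of maintenance methylation had a median log2 fold change of −0.19, with 9 of 9 lower and 4 at an unadjusted p below 0.05. These 4 were *Lig1*, the ligase that joins replicated DNA, at −0.31, *Cdca7* and *Cdca7l*, which recruit the remodeller HELLS, at −0.26 each, and *Hells* itself at −0.36. For *Lig1* the values were 104 and 112 CPM in control and 91.1 and 82.3 in Mps1sKO libraries (edgeR adjusted p = 0.494). The S phase list of 12 genes had a median of −0.16 with 3 lower at an unadjusted p below 0.05, led by *Cdc45* at −0.39 and *Rrm2* at −0.35. The mitosis list of 8 genes had a median of −0.30 with 5 lower, of which *Ccnb1* at −0.30 and *Bub1* at −0.40 had the smallest p-values. *Dnmt1* and *Uhrf1*, which are replication-linked genes as well, had values within the range of the S phase list, −0.39 to 0.021. *Dnmt3b* at −0.13, *Morc1* at −0.34 and *Tet3* at 0.016 lay within it too. *Dnmt3l* lay below it, and *Dnmt3a*, *Tet1* and *Tet2* lay above it.

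The list of piRNA-directed methylation held the largest shift. PIWI proteins loaded with small RNAs guide the de novo enzymes to transposons in fetal male germ cells. All 14 of its genes lay lower in both Mps1sKO libraries, beside 21.1% of all tested loci, with log2 fold changes from −0.66 to −0.31, a median of −0.41 and 11 at an unadjusted p below 0.05. *Mael* had 133 and 152 CPM in control and 101 and 99.0 in Mps1sKO libraries, with log2 fold change −0.51 (SE 0.0972, edgeR adjusted p = 0.494). With DESeq2 its adjusted p was 0.0334, the only call among the 80 genes with that tool. *Piwil4*, the nuclear PIWI protein, had 18.5 and 21.3 CPM in control and 13.8 and 11.3 in Mps1sKO libraries (log2 fold change −0.66, edgeR adjusted p = 0.494). The median of this list was close to that of the germ cell list, whereas the de novo enzymes *Dnmt3a* and *Dnmt3b*, at 0.096 and −0.13, lay outside its range. *Dnmt3l* at −0.50 and *Morc1* at −0.34 lay within it.

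Readers and erasers showed smaller differences. The 8 methyl-CpG readers had a median of −0.061 and none at an unadjusted p below 0.05, and *Mbd4*, a reader and glycosylase, had −0.24. Among 11 genes that remove oxidised cytosine the median was −0.0027. *Tdg*, the glycosylase that excises the products of the TET enzymes, had 59.9 and 58.6 CPM in control and 69.3 and 67.5 in Mps1sKO libraries (log2 fold change 0.21, unadjusted p = 0.048, edgeR adjusted p = 0.534), and *Smug1* had 0.17. The 11 histone modifiers and adaptors that steer DNA methylation had a median of −0.039 and none at an unadjusted p below 0.05, and the smallest p-values belonged to *Ehmt2* at −0.14 and *Kdm1b* at −0.15. The other DNMT and UHRF genes had a median of −0.0012 and the other MORC genes −0.11.

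**Figure D5:**
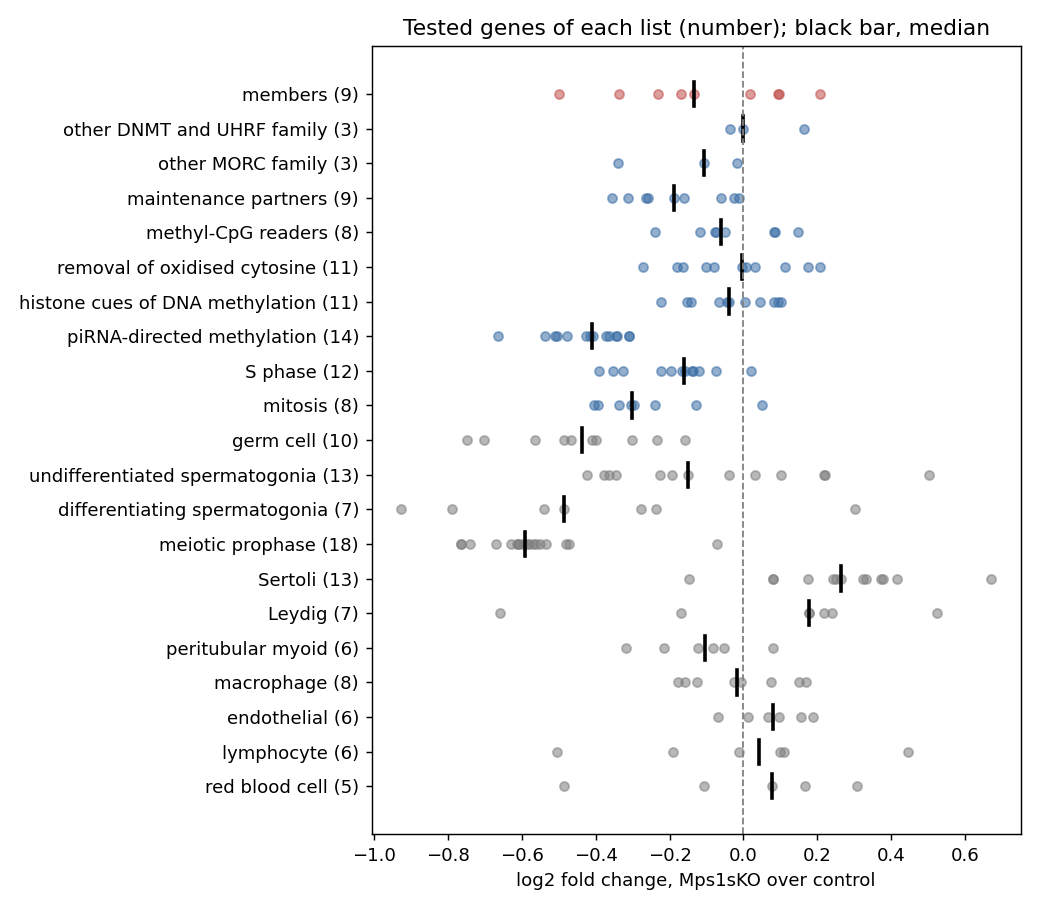
Log2 fold change of every tested gene of the 9 members (red), the lists around DNA methylation and cell division (blue) and the marker lists of cell types (grey), with the number of genes in brackets and a black bar at each median. Medians of the piRNA, germ cell, differentiating spermatogonia and meiotic prophase lists lie left of 0, and that of the Sertoli list right. On the other side of 0 lie 1 gene of the differentiating spermatogonia list and 1 of the Sertoli list. The members spread on both sides of 0.

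The other marker lists described the same libraries. The medians were −0.59 for 18 meiotic prophase genes such as *Stag3* and *Smc1b*, −0.49 for 7 genes of differentiating spermatogonia and −0.15 for 13 of undifferentiated spermatogonia. The undifferentiated list was split, with 8 genes lower and 5 higher, from −0.42 to 0.50. The differentiating list had 6 lower and 1 higher, from −0.93 to 0.30. Somatic lists had 0.18 for Leydig, −0.10 for peritubular myoid, −0.017 for macrophage, 0.081 for endothelial, 0.043 for lymphocyte and 0.077 for red blood cell genes, and none of these lists held a gene with an adjusted p below 0.05 from edgeR. The lymphocyte genes summed to between 6.41 and 6.90 CPM in all libraries.

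With 4 libraries, many genes share the pattern of any gene. The closest annotated gene to *Morc1*, by the root mean square difference of log2 deviations over the 4 libraries, was *Gm44684* at 0.0151, and 425 of 20315 genes lay within 0.1. For *Dnmt3l* it was *Pla2g1b* at 0.0033 with 114 genes within 0.1. For the other members between 2363 and 5332 genes lay within 0.1, and the closest were *Cpeb4* for *Dnmt1*, *Mpp7* for *Uhrf1*, *Parm1* for *Dnmt3a*, *Wdr75* for *Dnmt3b*, *Lrp8* for *Tet1*, *Zfp839* for *Tet2* and *Tada1* for *Tet3*. Genes on the opposite strand within the bounds of the members had at most 39 counts in a library. That was *B230319C09Rik*, with 39, 34, 35 and 34 counts, which shares no exon base with *Tet3*, and *Dnmt3bos*, with between 5 and 17, shares none with *Dnmt3b*. *Aire*, next to the rare *Dnmt3l*, had 14 and 9 in control and 7 and 7 in Mps1sKO libraries and shares 67 exon bases with it. *Dnmt3aos* had between 1 and 8 and shares 133 exon bases with *Dnmt3a*. *Gm42567* had between 0 and 4 and shares 43 with *Tet2*. The strandedness of the counting is not given in the sources used here, so reads where such pairs overlap cannot be told apart.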

How the data were processed

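Total RNA of whole testes was sequenced as paired-end reads in 4 libraries, and the labels give the genotype of each. The authors deposited raw counts per gene and FPKM values with the gene length used for them. The submitters' processing notes name HISAT2 2.0.5, featureCounts, DESeq2 1.16.1 and mm10. All 55536 annotated genes had the identifiers and coordinates of GENCODE M21, and 284 loci had no annotated identifier. The test on counts was that of edgeR 4.0.16 under R 4.3.3 (filterByExpr, TMM, quasi-likelihood F test). TMM factors were 0.990 to 1.01, and the common biological coefficient of variation was 0.106. The 95% intervals use the total degrees of freedom. The alternatives were DESeq2 1.42.0, its size factors in edgeR, library size only, other filters on low counts, a replicate block and each library left out. The fits were tested on simulated data with changes larger than those of the members, so power at the sizes reported here was not tested.

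The members and lists were chosen with earlier results of these data known. The named genes are the members, *Ttk*, the 2 genes with the smallest p and any called gene of each pathway list, the MORC and DNMT relatives, the gene nearest to each member (log2 of CPM plus 0.1) and the most abundant markers. A gene that this rule names is not reported here. *Rhox5*, *Ddx4*, *Hells*, *Cdca7l*, *Gm5648*, *Aire*, *B230319C09Rik*, *Dnmt3bos*, *Dnmt3aos* and *Gm42567* were added after their values were seen.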

Additional observations from a re-analysis of the deposited data

How the results depend on the processing

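No alternative gave any of the 9 genes an adjusted p below 0.05, in 99 values of which the lowest was 0.0845. Of these values 95 kept their direction and 4 turned: *Tet3* was −0.0048 with library size only, −0.051 without control replicate 2 and −0.041 without Mps1sKO replicate 2, and *Dnmt3b* was 0.0030 without Mps1sKO replicate 2. With a library left out, *Tet3* ranged from −0.051 to 0.084 and *Dnmt3b* from −0.28 to 0.0030. The number of the 9 with an unadjusted p below 0.05, 1 as reported, was 2 with library size only, beside 9.38% of all loci in that fit. It was also 2 with no filter, beside 8.52%, and with at least 10 counts in every library, beside 9.68%. With DESeq2 it was 0, beside 3.2%. The number that did not overlap was 5 to 9 with a library left out, where 63.5% to 75.9% of all loci did not overlap either, since 1 library is then set against 2, and the median was −0.25 to −0.041. Over all loci, 390 passed an adjusted p of 0.05 with no filter, 3 with at least 10 counts in every library, 34 with DESeq2, and 17 to 199 with a library left out, where the lone library is assumed to vary like the pair. Of the pathway genes, 10 passed with no filter, 1 with DESeq2 and 0 to 3 with a library left out, and 5 to 32 had an unadjusted p below 0.05 then.

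Replicate numbers are shared between genotypes, but nothing says that they pair the libraries, and deviations of same-numbered libraries had r = −0.27 across genes. With the replicate block, 2 loci passed an adjusted p of 0.05. An unadjusted p below 0.05 was held by 0 of the 9 genes and 10 pathway genes, beside 5.05% of all loci in that fit. With the crossed pairing, chosen after seeing the data, 550 loci and 18 pathway genes passed an adjusted p of 0.05, and 0 of the 9 genes did. At an unadjusted p below 0.05 there were 4 of the 9, beside 18.4% of all loci in that fit.

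Against the undifferentiated spermatogonia list, the ratio differences of *Uhrf1* and *Morc1* were −0.050 and −0.17, and those of *Dnmt1* and *Dnmt3b* were near 0. Against the meiotic prophase list that of *Dnmt3l* was 0.067. With a library left out it ranged from −0.21 to 0.097 for *Dnmt3l* and from −0.037 to 0.22 for *Morc1*. With 2 libraries a group, intervals for single genes are wide, and *Dnmt3l* had the fewest counts of the 9.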
